A study of Homo sapiens with 16 samples.

Results

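The genes described here encode the enzymes that make fatty acids from acetyl-CoA and then lengthen and desaturate them. The 10 members were ACLY, ACSS2, ACACA, FASN, SCD, ELOVL5, ELOVL6, FADS1, FADS2 and ME1. The rule took rows by gene symbol, and every array row bearing one of these symbols was kept separate. This gave 12 probe rows for 10 genes among 20589 rows for 18190 symbols, and 11 of the 12 were among the 11957 rows that entered the tests.

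The measurements came from MCF10A cells (MCF-10A in the labels), a nontransformed human breast epithelial line without HER2 amplification. The time series comprised 16 Illumina human Ref8v2 arrays, 1 for each 3 h step from 0 to 45 h. The 0 h culture was untreated, and the other 15 parallel cultures received 1 µM CP724,714, an inhibitor of the HER2 kinase, for 3 to 45 h. All 16 cultures grew in serum-free medium that contained insulin, hydrocortisone and epidermal growth factor. There was no replicate of any time point and no untreated culture after 0 h, so that the effect of the inhibitor and that of time in culture cannot be told apart. The medium was also renewed when treatment began, and an effect of fresh medium cannot be told apart from these either. HER2 kinase activity is not measured on these arrays.

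Array medians were 210.4 to 253.9 intensity units, and 10325 to 10889 rows per array were detected above background. The level of the negative-control beads lay at 187.8 to 198.6 on the arrays from 0 to 21 h and at 165.8 to 184.9 on those from 24 to 45 h, without overlap. The labels name no chip or scan batch. Of the markers for breast epithelium, KRT5 (28830 to 43970 units), KRT17, KRT6A and SFN were detected on all 16 arrays. KRT14 was detected on 1 array and TP63 on 10, and CDH1 was dim (224.7 to 319.4 units). The adipocyte markers ADIPOQ, LEP and PLIN1 were detected on 0 arrays, FABP4 on 5 and CIDEC on 9, whereas LPL was detected on all 16. The summed intensity of the 6 adipocyte markers was 1214 to 1835 units per array.

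Cells build fatty acids in the cytosol. ACLY splits exported citrate to acetyl-CoA, ACSS2 makes acetyl-CoA from acetate, and ME1 is a source of the NADPH that the synthesis consumes. ACACA carboxylates acetyl-CoA to malonyl-CoA, the committed step, and FASN joins these units into palmitate. ELOVL6 and ELOVL5 extend the chain, SCD introduces the first double bond into saturated chains, and FADS1 and FADS2 add double bonds to polyunsaturated chains. Transcription of many of these genes is known to be driven by SREBP-1, the product of SREBF1, which growth factor and insulin signaling can activate.

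Expression of the member genes did not follow a common course over the 45 h. FADS1, SCD and ACLY were at their highest in the untreated culture, ELOVL5 was lower up to 9 h than at any later time, ELOVL6 had low values at 6 and 9 h and again at the end, and FASN and ME1 stayed within a narrow range. In a test of time dependence that fitted a smooth curve to the 16 arrays (limma F-test on a spline with 3 df), 5 of the 11 tested member probes had an adjusted p under 0.05, compared with 54.7% of all tested probes. The 5 were SCD (adjusted p = 7e-05), ELOVL5 (0.00042), FADS1 (0.00044), ELOVL6 (0.0044) and ACLY (0.0052). The median range of the fitted curve was 0.59 log2 units for the member probes and 0.58 for all tested probes. ACACA (main probe, adjusted p = 0.16) passed without the 0 h array (0.0038), FASN (0.26) passed without the 18 h array (0.0095) and FADS2 (0.11) passed without the 33 h array (0.049). ACACA also passed with a spline of 5 df (0.0066), with F-tests over 4 groups (0.014) or 8 pairs of time points (0.0047), and with median scaling (0.0071), under which ME1 (0.40) passed too (0.0045).

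**Figure D1:**
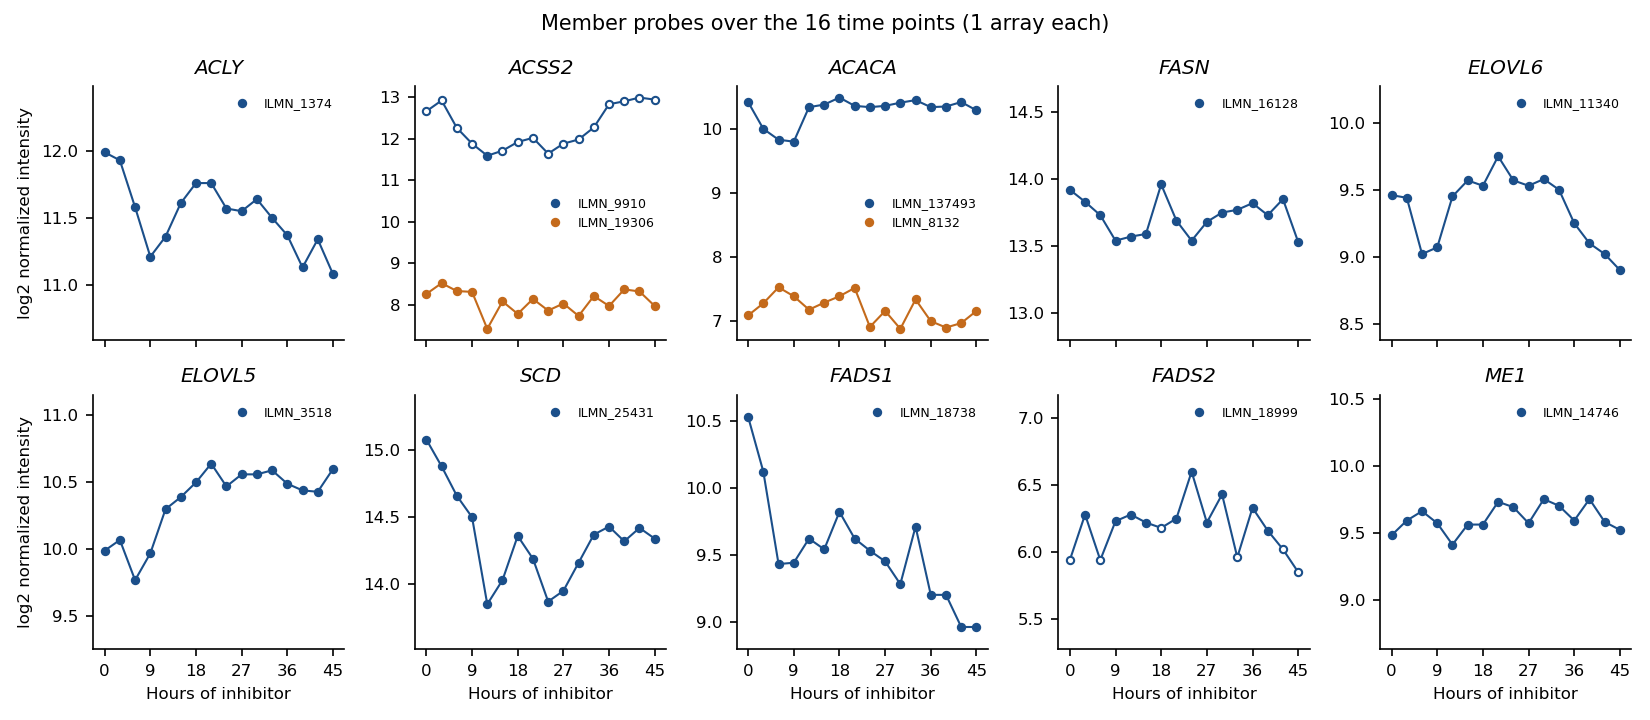
Normalized log2 intensity (y axis) of each member probe against hours of inhibitor (x axis), 1 array per point. Filled points were detected above background (detection p under 0.05) and open points were not. Panels with a single probe span the same height on the log2 scale. FADS1, SCD and ACLY start at their highest level, ELOVL5 steps up between 9 and 12 h, and the brighter ACSS2 row is lowest at 12 h and high again from 36 h.

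The early change was read from the mean of the 0 and 3 h arrays against the mean of the 6 and 9 h arrays. FADS1, ACLY, SCD, ELOVL6 and the main ACACA probe fell, and no member rose. That is 5 of 11 tested probes lower, where 11.5% of all tested probes were lower, and 0 of 11 higher, where 13.2% were higher. The median change was -0.24 on the log2 scale for the member probes and -0.01 for all tested probes. Consecutive time points are not replicates of a condition: here and in the comparisons that follow, the error is the spread of neighbouring time points about their mean, pooled over all 16 arrays. In RNA of whole cultures, fewer cells in a given state and less RNA per cell cannot be told apart.

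FADS1, the delta-5 desaturase of polyunsaturated chains, changed most in this interval. Its log2 intensity was 10.53 at 0 h and 10.12 at 3 h, against 9.43 at 6 h and 9.44 at 9 h. The change was -0.89 (SE 0.15, limma adjusted p = 0.00042), and it kept its call in each fit that left out 1 array. ACLY went from 11.99 and 11.93 to 11.58 and 11.21, a change of -0.56 (SE 0.13, adjusted p = 0.0038). SCD went from 15.08 and 14.88 to 14.66 and 14.50, a change of -0.40 (SE 0.09, adjusted p = 0.0043). For all of these the earlier and later arrays did not overlap. With 2 arrays on each side this says little: FASN, ELOVL5 and the other ACACA probe, which were not called, did not overlap either. The share of all tested probes without overlap was not computed, here or in the comparisons that follow.

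The elongase ELOVL6 stood at 9.46 and 9.44 at 0 and 3 h and at 9.02 and 9.07 at 6 and 9 h, a change of -0.40 (SE 0.12, adjusted p = 0.022). The main ACACA probe went from 10.42 and 10.00 to 9.83 and 9.80, a change of -0.39 (SE 0.12, adjusted p = 0.024). FASN had a change of -0.24 with a 95% interval from -0.46 to -0.02, which did not pass after adjustment (0.11). ELOVL5 (-0.16), ACSS2 on its dimmer probe (-0.07), FADS2 (-0.02) and ME1 (0.08) did not pass either. These early calls rested on few arrays. Without the 9 h array only FADS1 passed, with ACLY at -0.38 (adjusted p = 0.079), SCD at -0.32 (0.071), ELOVL6 at -0.42 (0.065) and ACACA at -0.38 (0.1). Without the 0 h array SCD was at -0.30 (0.06), ELOVL6 at -0.39 (0.076) and ACACA at -0.18 (0.33), and without the 6 h array ELOVL6 was at -0.38 (0.07) and ACACA at -0.41 (0.055).

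**Figure D2:**
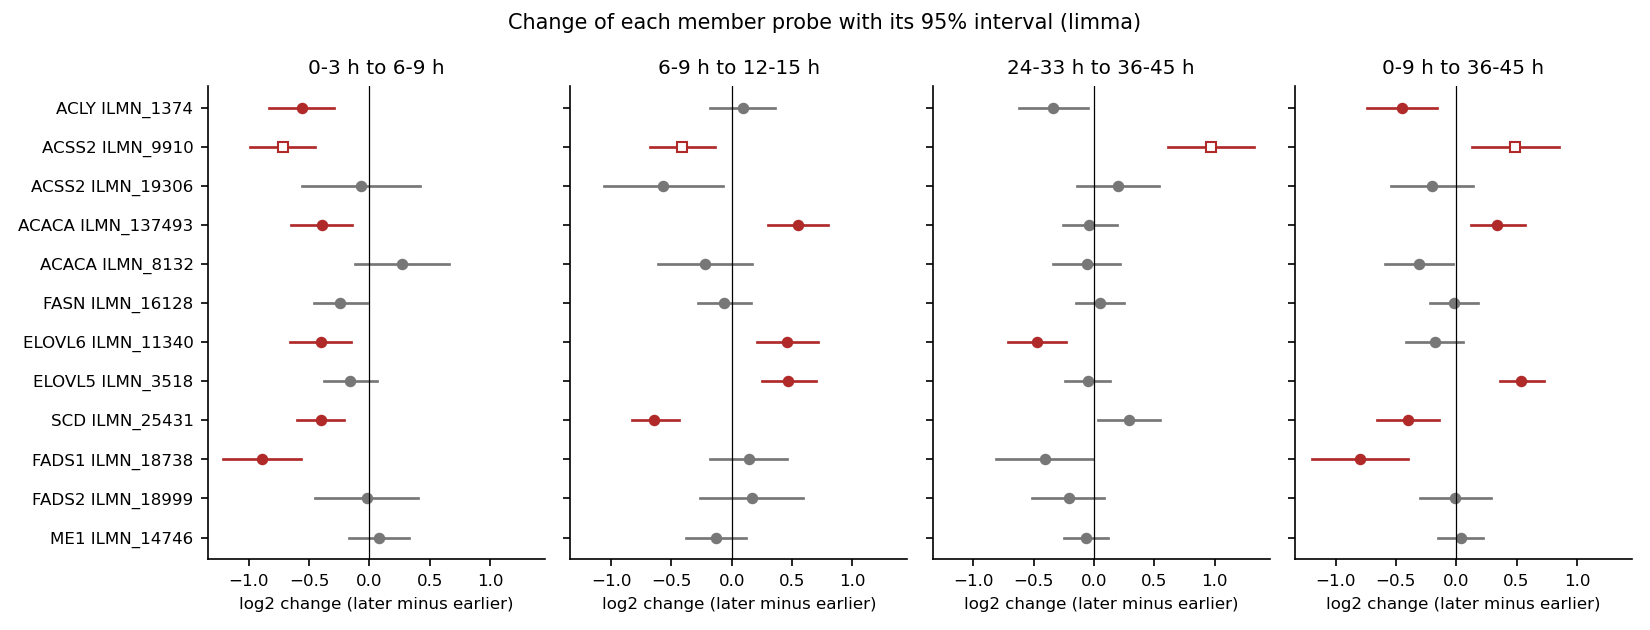
Log2 change (x axis, later minus earlier time points) of each member probe (y axis) in 4 comparisons, with its 95% interval from limma. Red marks an adjusted p under 0.05 and grey a larger one, and the open squares are the ACSS2 row that was tested only in an added fit. The first panel holds red points on the negative side only, and in the second ACACA, ELOVL6 and ELOVL5 are positive while SCD is negative.

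After 9 h the members parted. From 6-9 h to 12-15 h the main ACACA probe, ELOVL5 and ELOVL6 rose while SCD fell further. This was 3 of 11 tested probes higher, where 11.2% of all tested probes were higher, and 1 of 11 lower, where 10.5% were lower. ACACA reached 10.34 at 12 h and 10.38 at 15 h, a change of 0.55 from 6-9 h (SE 0.12, adjusted p = 0.0042). ELOVL6 reached 9.45 and 9.57, a change of 0.46 (SE 0.12, adjusted p = 0.012). Both were thereby back near their 0 h levels.

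ELOVL5 elongates polyunsaturated chains. Its log2 intensity was 9.77 to 10.07 on the 4 arrays up to 9 h and 10.30 to 10.64 on the 12 arrays after that, so that no later array overlapped with the first 4. The change from 6-9 h to 12-15 h was 0.47 (SE 0.11, adjusted p = 0.0049). SCD reached its lowest level of the series at 12 h (13.85), with 14.03 at 15 h, a change of -0.64 (SE 0.09, adjusted p = 0.00021). The earlier and later arrays did not overlap for ACACA, ELOVL6, ELOVL5 or SCD. Nor did they for FADS1, ME1 and the dimmer ACSS2 and ACACA probes, which were not called. Without the 6 h array ELOVL5 (0.37, adjusted p = 0.057) and ELOVL6 (0.44, 0.065) no longer passed, nor did they without the 15 h array (0.43, 0.051, and 0.40, 0.1), whereas the dimmer ACSS2 probe (-0.57, 0.095) passed without the 15 h array (-0.89, 0.037).

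SCD and ELOVL5, which changed in opposite directions from 6-9 h to 12-15 h, are shown here with the 250 bases before their annotated starts. Capitals mark matches to CCAAT, the core of NF-Y binding sites (read on either strand, so that ATTGG is the reverse match), and to the E-box CACGTG, a motif bound by USF and related factors. The sequences are from RefSeq (GRCh38.p14), 5′ to 3′ on the strand of the gene, chr10:100346983-100347232 on the plus strand for SCD and chr6:53348951-53349200 on the minus strand for ELOVL5.
SCD: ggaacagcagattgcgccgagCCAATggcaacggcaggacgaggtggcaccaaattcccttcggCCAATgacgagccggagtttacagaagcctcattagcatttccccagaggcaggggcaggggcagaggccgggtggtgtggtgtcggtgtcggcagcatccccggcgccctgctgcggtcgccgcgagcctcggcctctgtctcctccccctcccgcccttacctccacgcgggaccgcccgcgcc
ELOVL5: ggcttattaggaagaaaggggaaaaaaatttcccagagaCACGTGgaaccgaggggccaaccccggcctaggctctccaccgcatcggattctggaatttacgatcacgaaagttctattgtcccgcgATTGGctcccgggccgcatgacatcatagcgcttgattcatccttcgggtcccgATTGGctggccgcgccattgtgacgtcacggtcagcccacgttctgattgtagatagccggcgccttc
SCD held 2 forward CCAAT matches, with first bases at -229 and -186 (counted from the start, with -1 the last base shown), and ELOVL5 held an E-box at -211 and 2 reverse CCAAT matches at -122 and -68. Of the 10 members, 9 had an entry, with 14 promoter windows of 300 bases in all (250 before to 50 after a start). FASN had none and was not searched. CCAAT occurred in 8 of the 14 windows, where 34.6% of 35116 annotated windows held it, CACGTG in 1 (7.26% of all windows) and the sterol regulatory element in the form TCACNCCAC in 0 (1.13%). The 8 windows belonged to ACLY, ACSS2, ACACA, SCD, ELOVL5 and FADS2. Windows of the same gene were counted separately and are not independent: those of ACLY overlap and hold the same CCAAT matches. Enrichment was not tested. Both strands were searched, and the 3 motifs do not contain each other. A match is a description of the letters, and no match says only that these letters are not in the window.

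From 0-9 h to 36-45 h, the first and last groups of 4 time points, FADS1, ACLY and SCD were lower and ELOVL5 and the main ACACA probe higher. This was 3 of 11 tested probes lower, where 15% of all tested probes were lower, and 2 of 11 higher, where 16.2% were higher. The median change was -0.18 for the member probes and -0.02 for all tested probes.

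FADS1 averaged 9.88 ± 0.54 (SD over 4 time points) at 0-9 h and 9.08 ± 0.14 at 36-45 h, a change of -0.80 (SE 0.19, adjusted p = 0.0035). Over the series its lowest value was 8.96, its median 9.49 and its highest 10.53, and the culture at 42 h was 2.99-fold below the untreated one. The late arrays lay wholly below the early ones. ELOVL5 went from 9.95 ± 0.13 to 10.49 ± 0.08, a change of 0.54 (SE 0.09, adjusted p = 0.00016), again without overlap. Its lowest, median and highest values were 9.77, 10.46 and 10.64.

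SCD went from 14.78 ± 0.25 to 14.38 ± 0.05, a change of -0.40 (SE 0.12, adjusted p = 0.019). Its arrays from 36 to 45 h (14.32 to 14.43) lay below those from 0 to 9 h (14.50 to 15.08), but above its lowest point at 12 h, which was 2.34-fold below 0 h. The change of SCD from 24-33 h to 36-45 h is given with the last interval. ACLY went from 11.68 ± 0.36 to 11.23 ± 0.15, a change of -0.45 (SE 0.14, adjusted p = 0.019), and its groups overlapped because the 9 h array (11.21) was already low. The main ACACA probe went from 10.01 ± 0.29 to 10.35 ± 0.05, a change of 0.34 (SE 0.11, adjusted p = 0.022). Its untreated culture (10.42) was level with the late arrays (10.29 to 10.42), so that the difference came from the arrays at 3, 6 and 9 h.

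This comparison spans the shift of the negative-control level between 21 and 24 h. When the change across that step was left out, which was tried after seeing the data, ELOVL5 passed (0.45, adjusted p = 0.021), and FADS1 (-0.64, 0.12), ACLY (-0.39, 0.21), SCD (-0.38, 0.17) and ACACA (0.35, 0.15) did not. Among single arrays, ACLY lost its call without the 3 h (-0.36, 0.063), 39 h (-0.42, 0.053) or 45 h array (-0.40, 0.06), SCD without the 0 h array (-0.30, 0.053), and ACACA without the 6 h (0.28, 0.071), 9 h (0.27, 0.06) or 42 h array (0.32, 0.059). With arrays scaled to a common median in place of quantile normalization, ACLY (-0.32, 0.081) and SCD (-0.30, 0.087) did not pass either.

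In the last interval, from 24-33 h to 36-45 h, ELOVL6 was the only tested member probe to pass. This was 1 of 11 lower, where 18.7% of all tested probes were lower, and 0 of 11 higher, where 19.3% were higher. ELOVL6 had stood at 9.50 to 9.58 from 24 to 33 h and then read 9.25, 9.10, 9.02 and 8.90 at 36, 39, 42 and 45 h. The change was -0.47 (SE 0.11, adjusted p = 0.0033), the groups did not overlap, and the call held in every fit that left out 1 array. ELOVL6 thus had its lowest value of the series at 45 h, after a median of 9.45 and a highest value of 9.75 at 21 h. FADS1 (-0.41, adjusted p = 0.098) and ACLY (-0.34, 0.063), whose groups did not overlap either, and SCD (0.29, 0.07) did not pass. All of these passed without the 0 h array, at adjusted p = 0.023, 0.034 and 0.036, ACLY (0.014) and SCD (0.043) passed without the 9 h array, and SCD passed without the 33 h array (0.39, 0.021).

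Of the genes that supply acetyl-CoA and NADPH, ACSS2 was represented by a bright row and a dim one. The bright row was taken to combine more than 1 probe, as its detection p was no multiple of the step that a single probe allows, and that p was 0.0265 to 0.476 although the deposited intensity was 3285 to 8129 units. It passed the detection limit only on the 12 h array and so entered no main test. Its log2 intensity was 12.66 at 0 h, 12.92 at 3 h, 11.59 at 12 h and 12.83 to 12.99 from 36 to 45 h, with a median of 12.14. The row was thus lowest at 12 h and highest at 42 h, 2.63-fold apart. In a fit added after seeing the data, in which combined rows were kept by their intensity, it changed by -0.72 from 0-3 h to 6-9 h (adjusted p = 0.00057), by -0.41 to 12-15 h (0.028), by 0.97 from 24-33 h to 36-45 h (0.00025) and by 0.49 from 0-9 h to 36-45 h (0.038).

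The dim ACSS2 probe, detected on all 16 arrays at 350.8 to 512.6 units, also had its lowest value at 12 h (log2 7.42, median 8.11, highest 8.52 at 3 h) but passed in none of the main comparisons. Its change from 24-33 h to 36-45 h was 0.20, with a 95% interval from -0.14 to 0.54. The Pearson correlation between the ACSS2 rows was 0.58 over the 16 arrays, which share culture, time and array. ME1 varied least of the members, by 1.27-fold between its lowest (9.41 at 12 h), median (9.59) and highest (9.75 at 39 h) log2 intensity. Its change from 0-9 h to 36-45 h was 0.04, with a 95% interval from -0.15 to 0.22.

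FASN, the synthase itself, read 10900 to 17420 units and spanned 1.35-fold, from a log2 intensity of 13.53 at 45 h through a median of 13.73 to 13.96 at 18 h. Its change from 0-9 h to 36-45 h was -0.02, with a 95% interval from -0.22 to 0.18. The other ACACA probe, dim at 274.6 to 364.6 units, did not move with the main one: their correlation was -0.45 over the 16 arrays, and the dim probe changed by 0.27 (adjusted p = 0.31) where the main probe fell by 0.39. Its change from 0-9 h to 36-45 h was -0.31 (adjusted p = 0.08, and -0.39 with 0.033 without the 0 h array). FADS2, the delta-6 desaturase, was detected on 10 of the 16 arrays at deposited intensities of 185.8 to 252.8 units. Its highest array, at 24 h, was at least 1.42-fold above its lowest, which was not above background. It passed no comparison.

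Among the members, the courses of ACLY and FADS1 were the most alike (Pearson r = 0.81 over 16 arrays), followed by the main ACACA probe and ELOVL5 (0.77), whereas SCD and ELOVL5 ran against each other (-0.62). The tested probes outside the member genes with the most similar courses were ROD1, MRPL49 and SAFB2 for ACLY (r of 0.95, 0.95 and 0.94), UFC1, SPIN1 and LIPA for SCD (0.93, 0.93 and 0.92), and TARS, SH3RF2 and TMEM97 for FADS1 (0.92, 0.90 and 0.90). For ELOVL5 they were RAVER2, KRTCAP3 and DDAH1 (0.95, 0.94 and 0.93), for ELOVL6 PPIH, TFDP1 and PHF19 (0.96, 0.94 and 0.94), and for the bright ACSS2 row JARID1B, YPEL5 and GABARAPL1 (0.98 each). For ACACA they were METT5D1, MPZL1 and SULF2 (0.93, 0.93 and 0.92, with Spearman's rho of only 0.40, 0.62 and 0.40) and for FASN UBL7, MYST3 and GIT1 (0.88, 0.88 and 0.86). FADS2 (ASPH, LOC387921 and EXOSC10, 0.82 to 0.79) and ME1 (PSMB7, DCUN1D1 and NAV1, 0.80 to 0.75) had less similar neighbours. These are descriptions over arrays that share time and processing.

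The early fall of 5 member probes was set beside 6 lists of related genes. For each interval the shares of all tested probes are those given above with the members. Of the 23 tested probes for sterol synthesis and the LDL receptor, 19 fell and 0 rose from 0-3 h to 6-9 h, with a median change of -0.80, against 5 of 11 and -0.24 for the members. Among the steepest were HMGCS1, which makes HMG-CoA (-2.32, adjusted p = 2.3e-07), IDI1 (-1.70, 0.00011) and, at -1.68 each, MSMO1 and MVK. Of the 17 probes for SREBP, LXR and ChREBP regulators, 8 fell and 1 rose. INSIG1, which retains SREBP in the endoplasmic reticulum and is itself an SREBP target, changed by -3.47 (adjusted p = 1.1e-10) on its brighter probe and by -0.57 (0.11) on the other. An earlier result for INSIG1 in these data was known when this interval was chosen, so its adjusted p is no independent support. SREBF1 changed by -2.10 (1.5e-06), and PPARGC1B, a coactivator, by 0.85 (0.0019) on a dim probe (mean intensity 253.1 units). From 6-9 h to 12-15 h both lists moved in both directions. Of the regulators 3 rose and 3 fell, with INSIG1 at 2.23 (1.2e-07) on its brighter probe and -0.94 (0.013) on the other, and SREBF1 at 0.75 (0.0089). Of the sterol list 4 rose and 8 fell, with LSS at -2.40 on its dimmer probe and -1 (0.00054) on its brighter one. TM7SF2 was at -1.61 and MVD at -1.08 and, on the other side, HMGCS1 at 1.02 (0.00058). From 0-9 h to 36-45 h, which spans the shift of the negative-control level, 10 of the 23 sterol probes were lower and 0 higher, with a median of -0.61.

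**Figure D3:**
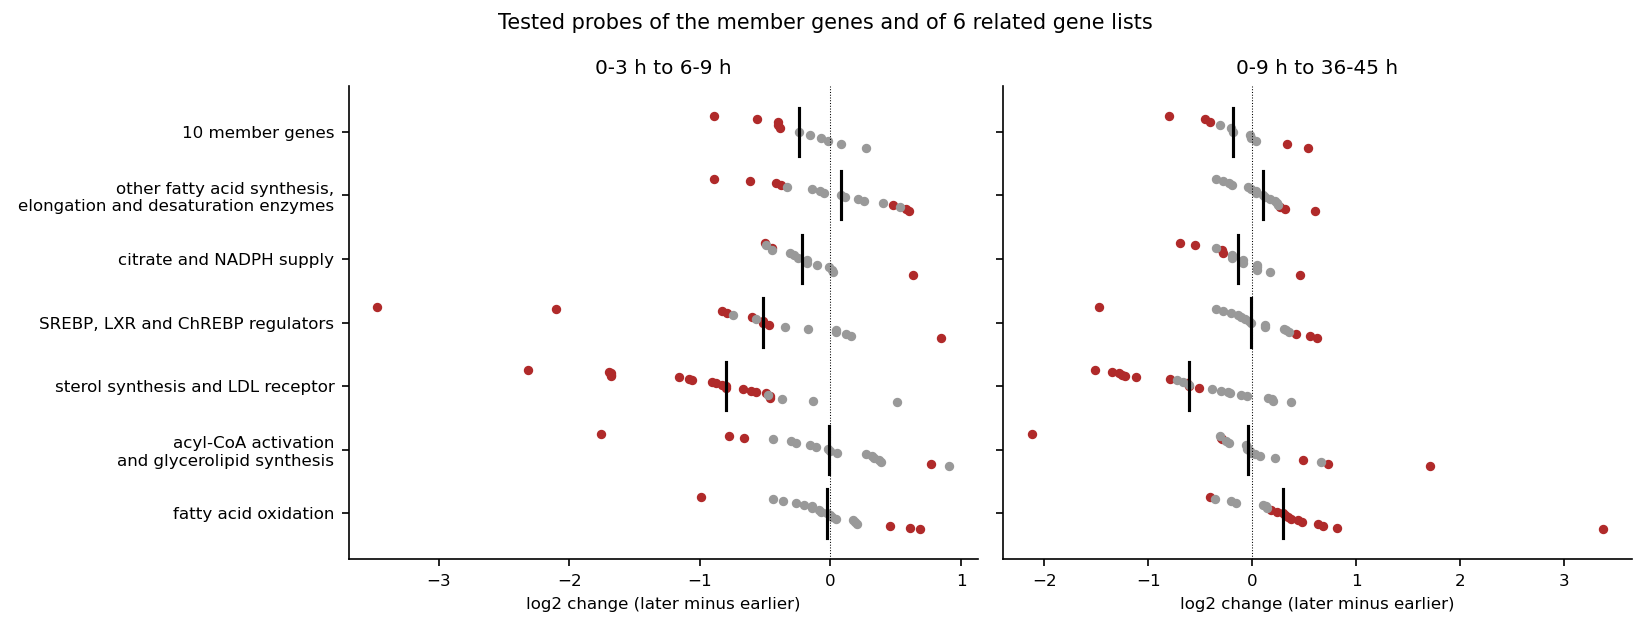
Log2 change (x axis, later minus earlier) of every tested probe of the member genes and of 6 related lists (y axis), from 0-3 h to 6-9 h on the left and from 0-9 h to 36-45 h on the right. Red points have an adjusted p under 0.05, and the black bar is the median of the list. The sterol list lies furthest to the left in both panels (medians -0.80 and -0.61), and fatty acid oxidation furthest to the right in the second (median 0.30).

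The other enzymes of fatty acid synthesis, elongation and desaturation (17 tested probes) moved in both directions in the early interval: 4 fell and 3 rose, with a median of 0.08. CBR4, of mitochondrial fatty acid synthesis, changed by -0.89, MECR, the enoyl reductase of that pathway, by 0.60 on one probe (adjusted p = 0.045) and by 0.21 on another (0.66), and MID1IP1, which promotes assembly of acetyl-CoA carboxylase, by -0.62. Both MECR probes were dim, with mean intensities of 271.8 and 229 units. From 6-9 h to 12-15 h 7 of the 17 rose and 3 fell. FADS3, a relative of FADS1 and FADS2, changed by -1.92 (adjusted p = 1.9e-07) in that interval and by 1.51 (1.4e-07) from 24-33 h to 36-45 h, larger than any tested member probe in either interval. HACD3, a dehydratase of the elongation cycle, did the opposite, with 1.06 and -1.02. From 0-9 h to 36-45 h 3 of the 17 rose and 0 fell, where 16.2% of all tested probes rose and 15% fell. The 3 were HACD2 (0.61) and HSD17B12 (0.32), both of the elongation cycle, and HSD17B8 (0.27).

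Among the 14 probes for citrate and NADPH supply, 1 rose and 4 fell from 0-9 h to 36-45 h. IDH1, the cytosolic isocitrate dehydrogenase, changed by -0.69, PGD of the pentose phosphate pathway by -0.55, and the mitochondrial IDH2 by 0.46. In the early interval ME2 rose (0.63) and PGD (-0.50) and PGLS (-0.45) fell. Of the 18 probes for acyl-CoA activation and glycerolipid synthesis, 3 fell and 1 rose early, led by the phosphatidate phosphatase LPIN1 (-1.76, adjusted p = 2.6e-07), ACSL1 (-0.78) and AGPAT5 (0.77). By 36-45 h 3 of the 18 had risen and 3 fallen, shares near those of all tested probes (16.2% and 15%), with GPAT3 at -2.12, ACSL5 at 1.71 and GPAM at 0.73.

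Genes of fatty acid oxidation were mostly higher at the end of the series. Of the 19 tested probes, 12 rose and 1 fell from 0-9 h to 36-45 h, with a median of 0.30, where 16.2% of all tested probes rose and 15% fell. This comparison spans the shift of the negative-control level between 21 and 24 h. Leaving out the change between the means of 12-21 h and 24-33 h took the calls over all tested probes from 3729 to 1617. That contrast has a larger SE, and the list was not refitted in this way. PDK4, which restrains the entry of pyruvate into mitochondrial oxidation, changed by 3.38 (adjusted p = 6.6e-06) from 0-9 h to 36-45 h, ETFDH by 0.82 and CPT1B, a carnitine palmitoyltransferase, by 0.68. From 24-33 h to 36-45 h, which does not span the shift, 8 of the 19 rose and 2 fell. Of all tested probes 19.3% rose and 18.7% fell in that interval. In the early interval 3 rose and 1 fell, with PDK4 at -0.99, SLC25A20 at 0.69 and CPT1A at 0.61. The probes of SLC25A20 and CPT1A were dim, with mean intensities of 220.5 and 234.2 units. The difference between this list and the member genes was not tested.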

How the data were processed

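Total RNA of 16 MCF10A cultures was measured on Illumina human Ref8v2 arrays. Per the file headers the deposited table held a non-normalized intensity and a detection p-value per row and array, and what the authors did to make them beyond this is not given in the sources used here. The p-value states how often negative-control beads were as bright. Rows whose p-values were multiples of 1 in 708 beads (within 0.001) were taken as single probes, 19092 in all, and the other 1497 as combined. Intensities were corrected with limma 3.58.1 (R 4.3.3; normexp, whose background was estimated for each array from the detection p-values, offset 16), quantile normalized and log2 transformed. Rows with a detection p-value under 0.05 on at least 3 arrays were tested (11957, called tested probes here). This filter did not separate single from combined rows. Time dependence was tested with a spline of 3 df (12 residual df). Contrasts used 4 groups of 4 consecutive time points (12 residual df) or 8 pairs (8 residual df), with Benjamini-Hochberg adjustment over all tested probes and a threshold of 0.05. Each time point had 1 array, which limits the precision, and no 2 arrays were identical.

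The members and the 6 related lists were chosen with earlier results of these data known. So were the comparisons between pairs of time points, for which an earlier result for INSIG1 was known. All members were named. In each list the up to 3 called genes with the largest absolute change per contrast, and for each member the 3 other symbols with the highest Pearson r, were eligible to be named, and some genes are not reported here. HMGCS1 at 12-15 h, the dimmer probes of INSIG1 and MECR and the brighter probe of LSS were named after their values were seen. Symbols are those of the array, updated through RefSeq where a synonym named 1 gene. Alternatives were background correction, offset, scaling, filter, curve, groups of arrays and leaving out each array. Promoter windows were searched with Python 3.11.15 and figures drawn with matplotlib 3.10.9.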

Additional observations from a re-analysis of the deposited data

How the results depend on the processing

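Of 1513 values of member probes compared between the reported settings and an alternative, 1446 kept their side of the threshold, 38 lost it, 26 passed it newly and 3 reversed. A reversal was a change of sign with a call in either setting. Values called in neither setting may have changed sign among the 1446, and the spline values have no sign. The reversals arose when 12-21 h was set against 0-9 h in place of 6-9 h against 0-3 h, with ACACA at 0.38, ELOVL5 at 0.51 and ELOVL6 at 0.33, all past the threshold. With median scaling, which shifted the median of all tested probes by 0.16 from 0-9 h to 36-45 h and by -0.1 from 24-33 h to 36-45 h, 3 member probes passed from 0-9 h to 36-45 h, 3 in the early interval and 3 in the last. It also moved the split over all tested probes from 1932 higher and 1797 lower to 2794 and 1029 for 0-9 h to 36-45 h, from 1584 and 1372 to 1794 and 1007 for the early interval, from 1339 and 1261 to 1651 and 840 for 6-9 h to 12-15 h, and from 2310 and 2234 to 1719 and 2935 for the last. In the last interval 2 member probes passed with cyclic loess, with detection on at least 1 array, with no filter, and with combined rows kept by intensity (added after seeing the data). When time entered as a straight line, 3 passed and SCD and ELOVL6 did not. With only the arrays compared in the fit, 3 passed from 0-9 h to 36-45 h, 2 in the early interval and 4 in the last. Without the change between the means of 12-21 h and 24-33 h (added after seeing the data, with a larger SE) 1 passed from 0-9 h to 36-45 h. With the 2 sets of 8 arrays as a block beside the spline, also added, 6 passed, FASN in addition (adjusted p = 0.035). Leaving out 1 array at a time gave 5 to 6 calls for the spline, 4 to 5 from 0-9 h to 36-45 h, 1 to 5 in the early interval, 2 to 4 from 6-9 h to 12-15 h and 1 to 4 in the last. For time dependence ACACA and ME1 passed newly with median scaling. By Spearman's rho, 0 to 1 of the 3 most similar genes were shared for 7 of the members. No chip or slide is named, so apart from those 2 sets no block for it was fitted. No paired analysis was possible because each time point has 1 array. FADS2, near background, and single arrays per time point set the limits of these data.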
